A study of Arabidopsis thaliana with 12 samples.

Results

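Plants of Arabidopsis thaliana labelled homozygous for a T-DNA insertion in NUWA were compared with plants labelled heterozygous for it, over all gene models. The comparison used 6 of the 12 libraries of the series, 3 homozygous and 3 heterozygous, chosen by their sample titles. The other 6 libraries came from plants homozygous (3) or heterozygous (3) for an insertion in DYW2 and entered the same model. Every group carries at least one insertion, and no wild-type library was analysed here. The deposited file names call the heterozygous plants wild type, while their titles and genotype field call them heterozygous. All plants were grown in soil under 16 h of light at 20 °C and 8 h of dark at 18 °C, and each library pooled flower bud, rosette and stem. Total RNA was depleted of ribosomal RNA and made into stranded libraries, and the study asked which nuclear and organelle transcripts are defective in the mutants.

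NUWA and DYW2 belong to the pentatricopeptide repeat proteins, a large plant family that binds RNA inside mitochondria and plastids. Many members direct the editing of single cytidines to uridines in organelle transcripts, a step that restores conserved codons. When mitochondrial function is disturbed, plant cells are known to induce nuclear genes for alternative oxidase, alternative NADH dehydrogenases, transporters and chaperones, a response in which NAC transcription factors of the endoplasmic reticulum membrane take part.

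The nuwa homozygous libraries held 68078412, 37496733 and 47062499 counts in replicates 1 to 3, and the nuwa heterozygous libraries 59478718, 97804029 and 74177950. Levels are given below as CPM, read counts scaled to library size with TMM, which corrects for the makeup of each library, and are not divided by gene length. Reads that aligned equally well to more than one place had been removed before counting.

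The targeted gene was low in every library and was not lower in homozygous plants. NUWA (AT3G49240, annotated as emb1796, chr3:18255961-18258203, plus strand, 1 exon, TAIR10.1) had 0.761, 1.34 and 1.26 CPM in homozygous plants, from 32, 40 and 53 reads, against 0.660, 0.351 and 0.905 CPM in heterozygous plants, from 30, 24 and 52 reads. Its log2 fold change was 0.81 ± 0.38 (SE; adjusted p = 0.269, edgeR quasi-likelihood test). A count over the whole gene model does not show whether a transcript spans the insertion, so it does not check the genotype. DYW2 (AT2G15690), the other gene of the study, rose to 8.73, 12.6 and 14.2 CPM in nuwa homozygous plants, against 5.70, 5.11 and 6.42 CPM in heterozygous plants (log2 fold change 1.04 ± 0.18, adjusted p = 0.0148).

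For nuwa homozygous replicate 3 the genotype field names dyw2 homozygous, and for dyw2 homozygous replicate 2 it names nuwa homozygous. The titles were followed. Over all tested genes, the median absolute log2 CPM difference of nuwa homozygous replicate 3 was 0.39 and 0.28 from nuwa homozygous replicates 1 and 2, 0.65 to 0.74 from the 3 dyw2 homozygous libraries, 0.29 to 0.35 from the nuwa heterozygous libraries and 0.23 to 0.29 from the dyw2 heterozygous ones. Its nearest library was thus a heterozygous one, dyw2 heterozygous replicate 1. For dyw2 homozygous replicate 2 it was 0.21 and 0.22 from its titled group and 0.66 to 0.86 from the nuwa homozygous libraries. AT2G21640 had 12.3 CPM in nuwa homozygous replicate 3, against 11.2 and 8.82 CPM in the other nuwa homozygous libraries. It had 127 CPM in dyw2 homozygous replicate 2, against 102 and 103 CPM in the other dyw2 homozygous libraries. This gene was called with the titled groups, so its values cannot serve as a check of the titles. With the groups of the genotype field, no gene was called in the nuwa comparison by edgeR at an adjusted p under 0.05, and 3364 had an unadjusted p under 0.05.

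A different split ran through the homozygous group. Genes of the tapetum and pollen wall and of late pollen were near the floor in homozygous replicates 1 and 2, and genes of floral organ identity were lower there, while homozygous replicate 3 was nearer to the heterozygous level. The summed level of the 13 tested genes of floral organ identity was 24.9, 16.3 and 76.9 CPM in homozygous replicates 1 to 3, against 130, 86.6 and 129 CPM in heterozygous plants. For the 20 tested genes of the tapetum and pollen wall the sums were 3.59, 3.59 and 111 CPM in homozygous plants, against 245, 112 and 218 CPM in heterozygous plants. For the 6 tested late pollen genes they were 0.0714, 0.235 and 16.4 CPM in homozygous plants, against 31.9, 18.4 and 24.4 CPM in heterozygous plants. VGD1, a pollen pectin methylesterase, had 0, 0 and 8.18 CPM in homozygous plants, against 11.9, 5.33 and 10.8 CPM in heterozygous plants. SEP3, a MADS-box factor of floral organs, had 1.43, 0.939 and 16.3 CPM in homozygous plants, against 25.3, 17.3 and 25.6 CPM in heterozygous plants. SEP4, of the same family, had 13.6, 12.1 and 10.7 CPM in homozygous plants, against 13.3, 10.9 and 15.3 CPM in heterozygous plants, so the floral identity list was not low throughout. The part of flower content in the results below was not tested, beyond the fit with a flower bud covariate. In pooled tissue, fewer cells of a type and less RNA per cell cannot be told apart.

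In all, 309 genes were at least 4-fold lower in homozygous replicates 1 and 2 than in the lowest heterozygous library while homozygous replicate 3 reached that library, and 13 of them were on the 3 flower lists. No gene showed this pattern with replicate 1 or replicate 2 as the exception. Not one of the 39 flower list genes was called in the comparison of all 6 libraries. There were 11 with an unadjusted p under 0.05 and 2 called by DESeq2, a second count test. Without homozygous replicate 3, edgeR called 10, 14 and 4 members of these lists lower. Markers of the other organs were closer between the groups. The 47 nuclear photosynthesis genes, mainly of green rosette tissue, summed to 121700, 108600 and 88140 CPM in homozygous plants, against 101500, 101600 and 107000 CPM in heterozygous plants. The 17 secondary cell wall genes, which mark stem, summed to 24.7, 24.1 and 42.6 CPM in homozygous plants, against 34.0, 19.6 and 47.9 CPM in heterozygous plants.

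**Figure D1:**
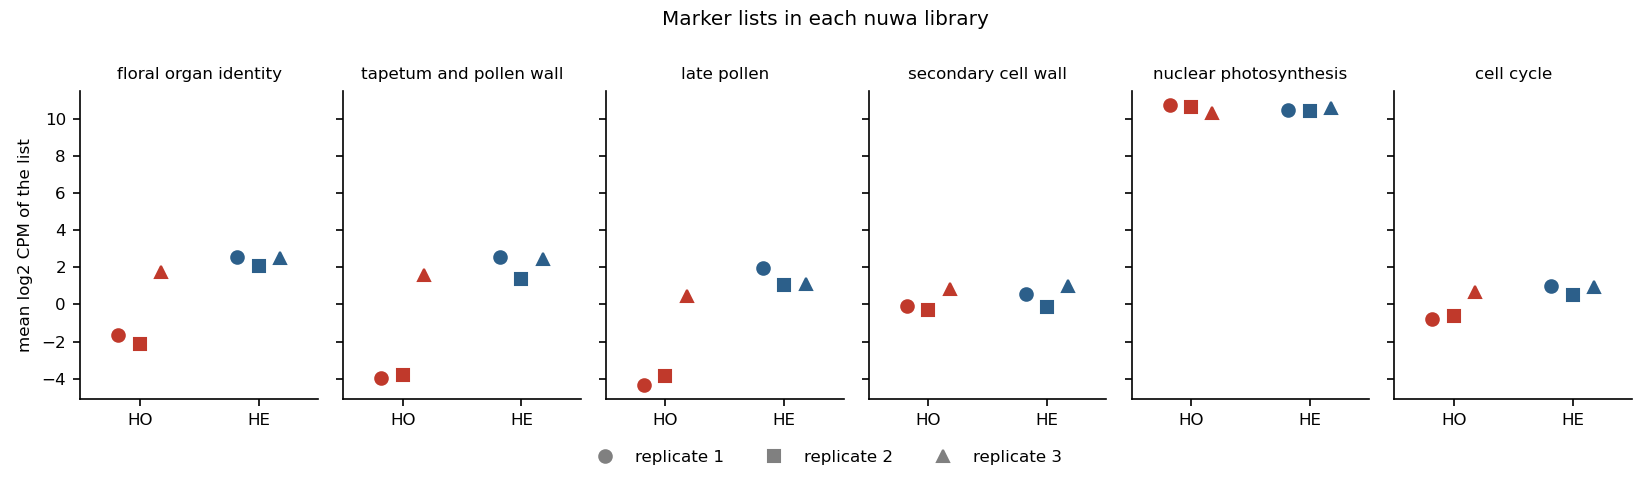
Mean log2 CPM of 6 marker lists in each nuwa library, homozygous (HO) left of heterozygous (HE), with replicates 1 to 3 as circle, square and triangle. The 3 flower lists are low in HO replicates 1 and 2 only, while photosynthesis genes lie at one level in all 6 libraries.

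Of 21213 genes tested, 327 were called higher (1.54%) and 135 lower (0.636%) in nuwa homozygous plants at an adjusted p under 0.05, 2.18% together. The homozygous and heterozygous values did not overlap for any of the 462, against 21.1% of all tested genes with no overlap in either direction, 8.43% higher and 12.7% lower. The higher genes comprised 305 nuclear and 22 mitochondrial gene models, the lower genes 135 nuclear ones, and no plastid gene model was called in either direction. A change of at least 2-fold was seen in 156 of the higher and 91 of the lower genes.

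These calls rest on the spread shared with the dyw2 libraries. When the 6 nuwa libraries were fitted alone, with 4 residual degrees of freedom in place of 8, edgeR called 6 genes, all higher, and 2906 had an unadjusted p under 0.05. The 6 were nad9, AT2G04050, AT2G21640, AT5G51440, AT3G49320 and AT2G07733. Leaving out each nuwa library in turn, 75 of the 462 genes were called every time in the direction first found, 72 of them higher and 3 lower. Without homozygous replicate 1 there were 388 higher and 68 lower calls, and without homozygous replicate 2 there were 89 higher and 5 lower ones. The dyw2 libraries enter through the shared spread, the filter on counts and the scaling. Without 1 of the dyw2 homozygous libraries there were 192 to 216 higher and 47 to 66 lower calls. Leaving out dyw2 heterozygous replicates 1, 2 and 3 in turn gave 445, 334 and 255 higher and 135, 198 and 64 lower calls. Without nuwa heterozygous replicates 1, 2 and 3 there were 91, 168 and 106 higher and 27, 43 and 51 lower calls. Without homozygous replicate 3, the flower-rich library, there were 495 higher and 1244 lower calls, and 314 of the 327 higher genes and 128 of the 135 lower genes were among them. With flower bud content as a covariate there were 318 higher and 37 lower calls, among them 171 of the 327 higher and 14 of the 135 lower genes.

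**Figure D2:**
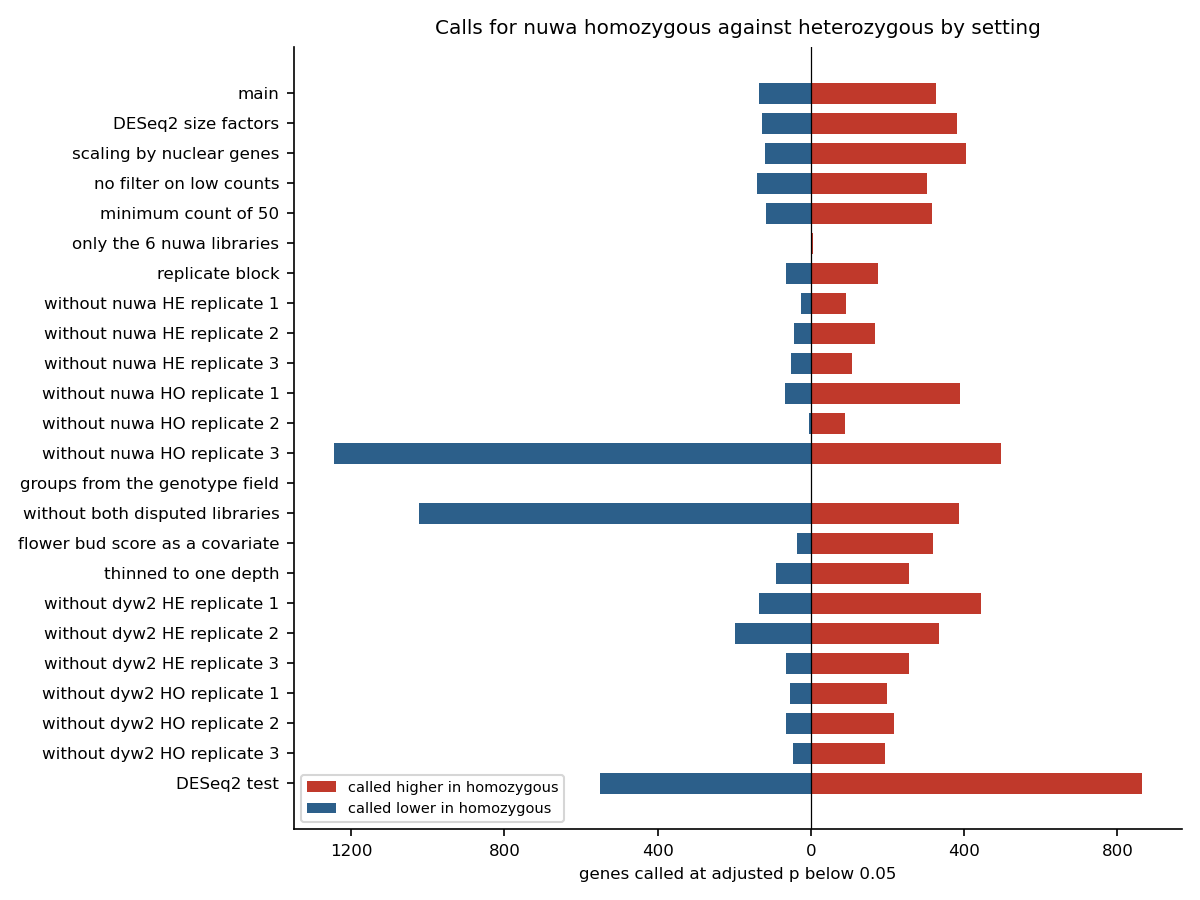
Number of genes called higher (right of 0) and lower (left of 0) in nuwa homozygous plants under each setting, at an adjusted p below 0.05, with the reported setting at the top. The lower calls range from 0 to 1244 and the higher calls from 0 to 863.

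Among mitochondrial gene models, 22 were called higher, with nad9 the one with the smallest p. The mitochondrial share of all counts, without rRNA and tRNA genes, was 0.491%, 0.539% and 0.587% in homozygous plants, against 0.325%, 0.306% and 0.345% in heterozygous plants. The mean was 0.539% ± 0.0481 in homozygous plants and 0.325% ± 0.0192 in heterozygous plants (SD, n = 3 each), a ratio of 1.66. The groups did not overlap, and the exact two-sided permutation test gave p = 0.1, the smallest that 3 against 3 allows. The plastid share was 66.9%, 60.3% and 60.5% in homozygous plants, against 61.8%, 65.2% and 61.8% in heterozygous plants, and these groups overlapped (exact permutation p = 1).

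Of the 82 mitochondrial gene models tested, 22 were called higher (26.8%, beside 1.54% of all tested genes) and none lower. The median log2 fold change was 0.66, beside -0.02 over all tested genes. Leaving out one nuwa library at a time gave 10 to 27 calls, with 10 without heterozygous replicate 1 or 3, 11 without homozygous replicate 2 and 12 without heterozygous replicate 2. There were 10 with flower bud content as a covariate and 1, nad9, in the fit of the 6 nuwa libraries alone.

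The gene nad9 (ATMG00070), which encodes a subunit of complex I of the respiratory chain, had 964, 797 and 754 CPM in homozygous plants, against 202, 168 and 182 CPM in heterozygous plants. Every homozygous library was over 3 times as high as every heterozygous one, and the log2 fold change was 2.19 ± 0.15 (4.56-fold, adjusted p = 9.5e-05). It was 2.08 to 2.26 without any one nuwa library. For nad7 (ATMG00510), another complex I subunit, the levels were 499, 458 and 353 CPM in homozygous plants, against 229, 206 and 218 CPM in heterozygous plants (log2 fold change 1.01 ± 0.15, adjusted p = 0.0087). Of the complex I genes whose names were accepted by gene length, the others tested, nad4 and nad4L, were not called. Their log2 fold changes were 0.56 and 0.43. Parts of split genes and models without an accepted name were counted with the other mitochondrial models below.

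All 3 tested mitochondrial ribosomal protein genes rose. The mitochondrial rps3 (ATMG00090), for a small-subunit protein, had 193, 250 and 246 CPM in homozygous plants, against 97.7, 71.6 and 97.0 CPM in heterozygous plants (1.37 ± 0.19 on the log2 scale, adjusted p = 0.0063). The large-subunit genes rpl16 and rpl2 had log2 fold changes of 1.27 ± 0.23 and 0.66 ± 0.12. Of the 3, 1 was called without heterozygous replicate 2 or 3 or homozygous replicate 2, 2 without heterozygous replicate 1, and none in the fit of the 6 nuwa libraries alone. The 4 tested genes of complexes III, IV and V whose names were accepted by gene length were not called. Of the 4, 3 were higher without overlap between the groups, beside 8.43% of all tested genes. Of these, cox1, the catalytic core of cytochrome c oxidase, had 1524, 1441 and 1576 CPM in homozygous plants, against 952, 975 and 1093 CPM in heterozygous plants (log2 fold change 0.59, adjusted p = 0.0641). Of the cytochrome c maturation genes with an accepted name, ccmB was the one tested. It had 49.3, 35.4 and 40.8 CPM in homozygous plants, against 40.5, 41.1 and 37.7 CPM in heterozygous plants, and these values overlapped. ATMG00830, whose proposed name ccmFC was not accepted by length, was called higher (log2 fold change 1.24 ± 0.16, adjusted p = 0.0052, edgeR).

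The 66 other mitochondrial gene models tested were mostly unnamed reading frames and parts of split genes. Of these, 17 were called higher (25.76%, beside 1.54% of all tested genes), with a median log2 fold change of 0.75 over the 66. The model ATMG00513 had 100, 89.1 and 83.9 CPM in homozygous plants, against 42.9, 39.8 and 42.9 CPM in heterozygous plants, and ATMG01120 had 117, 102 and 83.4 CPM, against 44.2, 43.2 and 43.8 CPM. Both were chosen here after their values were seen. A nuclear copy of most of the mitochondrial genome on chromosome 2 also gave higher calls. Of 130 chromosome 2 gene models that matched the mitochondrial genome over most of their length, 86 were tested. Of these, 31 were called higher (36.05%, beside 1.54% of all tested genes), with a median log2 fold change of 0.84 over the 86. There were 13 calls without heterozygous replicate 1, 18 without heterozygous replicate 2, 14 without homozygous replicate 2, 21 with the flower bud covariate and 1 in the fit of the 6 nuwa libraries alone. Reads of the copy and of the mitochondrial genome cannot be fully told apart, and reads that aligned equally well to both were removed. The values of these nuclear models are therefore uncertain. So are those of mitochondrial gene models with such a copy, and the mitochondrial share of counts. AT2G07733 is one of the nuclear models. It had 65.8, 76.5 and 72.9 CPM in homozygous plants, against 13.7, 11.7 and 14.6 CPM in heterozygous plants (log2 fold change 2.43 ± 0.18, adjusted p = 9.6e-05).

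Nuclear genes known to answer mitochondrial dysfunction rose in part. Of 31 tested members, 10 were called higher (32.26%, beside 1.54% of all tested genes) and none lower. The median log2 fold change was 0.77. The list gave 9 to 11 higher calls without any one nuwa library, 11 with flower bud content as a covariate and 3 in the fit of the 6 nuwa libraries alone.

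AT2G21640, annotated as a marker of oxidative stress, had 11.2, 8.82 and 12.3 CPM in homozygous plants, against 1.03, 1.67 and 1.22 CPM in heterozygous plants (log2 fold change 3.03 ± 0.21, 8.18-fold, adjusted p = 9.5e-05). AT2G04050, a transporter of the MATE family, had 5.16, 5.30 and 4.23 CPM in homozygous plants, against 0.0440, 0.190 and 0.104 CPM in heterozygous plants (log2 fold change 5.31 ± 0.39). For AT5G51440, a small heat shock protein, the values were 6.57, 3.42 and 6.45 CPM in homozygous plants, against 0.352, 0.438 and 0.348 CPM in heterozygous plants (log2 fold change 3.84 ± 0.32). In each of these genes the flower-rich homozygous replicate 3 stood with replicates 1 and 2.

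AOX1A encodes the stress-inducible alternative oxidase, which carries electrons from ubiquinol to oxygen without pumping protons. It had 62.6, 52.2 and 53.9 CPM in homozygous plants, against 19.7, 25.9 and 22.2 CPM in heterozygous plants (log2 fold change 1.31 ± 0.16, adjusted p = 0.0034). Its relatives were low throughout. AOX1D had 0.0714, 0.168 and 0.404 CPM in homozygous plants, against 0, 1.39 and 0.139 CPM in heterozygous plants. The alternative NADH dehydrogenase gene NDB4 rose to 0.190, 0.235 and 0.476 CPM in homozygous plants, against 0.0440, 0.0438 and 0.0174 CPM in heterozygous plants. NDB2, with a log2 fold change of 0.77 (adjusted p = 0.12), did not pass.

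Among the transcription factors of this response, NAC13 rose to 10.06, 9.32 and 8.54 CPM in homozygous plants, against 4.14, 4.18 and 3.19 CPM in heterozygous plants (log2 fold change 1.28 ± 0.14, adjusted p = 0.0022). NAC017, a membrane-bound factor known to be activated by release from the membrane, had 26.7, 25.7 and 28.5 CPM in homozygous plants, against 26.0, 29.3 and 26.8 CPM in heterozygous plants. The others called were the transporters DTX1 (3.47) and AT2G04070 (2.41), the CHCH-domain gene AT5G09570 (2.84) and the glucosyltransferase gene UGT74E2 (2.22 on the log2 scale). WRKY40 and WRKY15 had negative log2 fold changes of -1.05 and -0.78 and were not called. In all, 9 of the 31 tested members of this list had a negative log2 fold change, the lowest -2.10, and none was called lower.

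**Figure D3:**
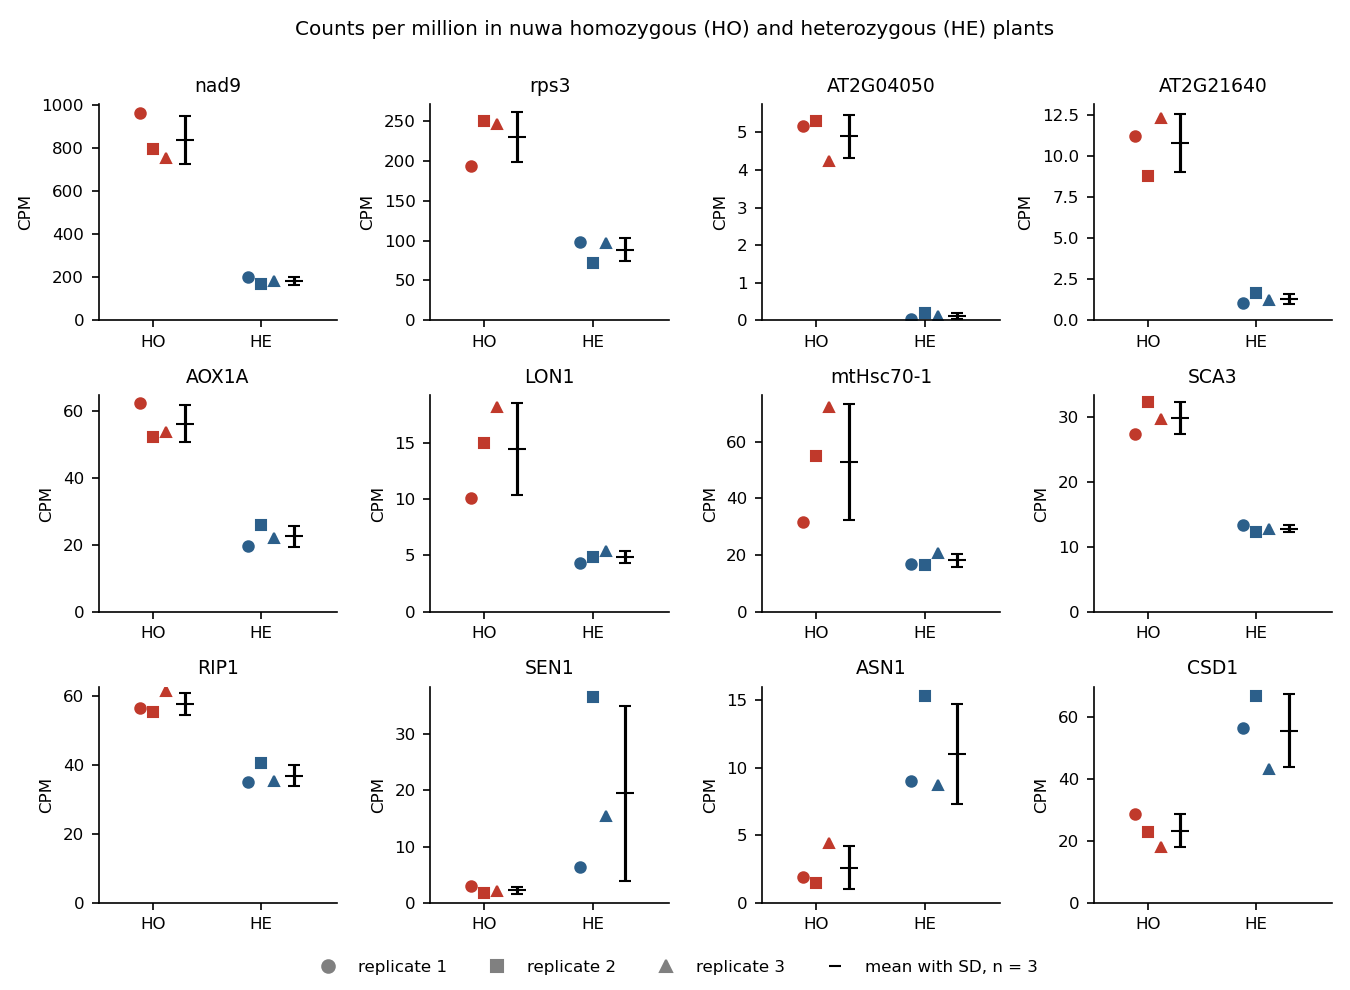
CPM of 12 genes in each library, nuwa homozygous (HO, left) and heterozygous (HE, right), with the mean and SD of each group (n = 3). The 9 genes up to RIP1 are higher in every HO library than in every HE library, and SEN1, ASN1 and CSD1 are lower.

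Promoter windows are printed for the 4 called genes of the stress and chaperone lists that held the mitochondrial dysfunction motif, a sequence bound by NAC013 and NAC017 and known from promoters of this response. It was searched as CTTG, 5 bases of any kind and CANG, on both strands in the 250 bases before each annotated gene start (TAIR10.1, RefSeq), and matches are in capitals.
AT2G21640 (chr2:9254128-9254377, plus strand): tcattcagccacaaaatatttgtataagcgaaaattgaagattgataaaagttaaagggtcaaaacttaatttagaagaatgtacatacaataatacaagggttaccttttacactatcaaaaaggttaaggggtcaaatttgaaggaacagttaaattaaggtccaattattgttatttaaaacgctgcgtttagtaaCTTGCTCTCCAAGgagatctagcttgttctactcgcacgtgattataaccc
AT2G04050 (chr2:1339469-1339718, minus strand): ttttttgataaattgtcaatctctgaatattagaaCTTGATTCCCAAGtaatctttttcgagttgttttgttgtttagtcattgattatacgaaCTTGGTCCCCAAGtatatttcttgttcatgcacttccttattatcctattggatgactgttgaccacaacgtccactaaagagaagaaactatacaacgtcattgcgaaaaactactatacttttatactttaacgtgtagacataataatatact
AT5G51440 (chr5:20890913-20891162, plus strand): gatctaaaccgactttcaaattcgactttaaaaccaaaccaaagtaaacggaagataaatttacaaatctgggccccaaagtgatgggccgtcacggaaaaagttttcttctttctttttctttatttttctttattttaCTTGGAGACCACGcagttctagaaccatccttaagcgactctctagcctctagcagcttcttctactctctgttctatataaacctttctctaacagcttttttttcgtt
mtHsc70-1 (chr4:17828193-17828442, minus strand): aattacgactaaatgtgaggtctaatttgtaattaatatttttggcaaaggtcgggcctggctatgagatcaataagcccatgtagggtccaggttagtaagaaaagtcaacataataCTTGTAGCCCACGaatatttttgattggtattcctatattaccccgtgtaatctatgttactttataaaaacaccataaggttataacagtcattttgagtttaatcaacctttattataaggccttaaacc
The match in AT2G21640 lies at positions -51 to -39 from the gene start, that in AT5G51440 at -110 to -98, those in AT2G04050 at -215 to -203 and -156 to -144, and that in mtHsc70-1 at -132 to -120. The matches in AT2G21640 and AT2G04050 have outer arms, CTTG and CAAG, that are inverted repeats, and they fit the motif on both strands.

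The motif was present in 1.5% of the 20090 windows of tested protein-coding genes, in 19 of 286 windows of genes called higher (6.64%) and in 2 of 128 windows of genes called lower (1.56%). On the stress list it was in 10 of 31 windows of tested members (32.3%) and in 3 of 10 windows of called members. It was absent from the windows of AOX1A and NAC13, which says only that these letters are not in these 250 bases. A heat shock element searched as GAANNTTC was in 9.44% of windows of genes called higher and 9.49% of tested windows, and the copper response core GTAC in 35.7% and 34.7%. These 3 motifs were searched with earlier results known, and the shares are a description with no test.

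Mitochondrial chaperones and proteases rose as well. Of 12 tested members, 5 were called higher (41.67%, beside 1.54% of all tested genes) and none lower. All 12 log2 fold changes were positive, and their median was 0.69. The protease gene LON1 had 10.09, 14.99 and 18.22 CPM in homozygous plants, against 4.33, 4.89 and 5.42 CPM in heterozygous plants (log2 fold change 1.56 ± 0.21, adjusted p = 0.0052). The matrix chaperone gene mtHsc70-1 had 31.6, 55.1 and 72.4 CPM in homozygous plants, against 17.0, 16.6 and 20.8 CPM in heterozygous plants (1.55 ± 0.26, adjusted p = 0.0148). The others were MTHSC70-2 (1.40 ± 0.24) and the chaperonin genes HSP60 (1.03 ± 0.22) and HSP60-2 (1.01 ± 0.20 on the log2 scale). In LON1, mtHsc70-1, MTHSC70-2 and HSP60 the homozygous level was highest in the flower-rich replicate 3 and lowest in replicate 1, and the part of tissue content in this was not tested. The count fell to 1 without heterozygous replicate 1 or 2 or homozygous replicate 2, and to 2 without heterozygous replicate 3. It was 5 with flower bud content as a covariate and 0 in the fit of the 6 nuwa libraries alone.

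The heat shock genes of the cytosol were not called in either direction, by edgeR or DESeq2, and none of the 11 tested had an unadjusted p under 0.05. Their median log2 fold change was 0.14. HSP101, the cytosolic disaggregase, had 1.33, 1.58 and 2.02 CPM in homozygous plants, against 1.78, 1.17 and 1.53 CPM in heterozygous plants.

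Genes of prohibitins, ring-forming scaffolds of the mitochondrial inner membrane, were picked after their values were seen. Of 15 tested genes annotated as prohibitin or SPFH domain proteins, 7 were called higher (46.7%, beside 1.54% of all tested genes) and none lower. PHB1 had 11.1, 11.7 and 14.1 CPM in homozygous plants, against 5.28, 7.10 and 5.87 CPM in heterozygous plants (log2 fold change 1.01 ± 0.15, adjusted p = 0.0101). PHB2, PHB3, PHB4 and PHB6 had log2 fold changes of 0.75, 0.70, 0.93 and 0.57. The SPFH gene AT5G54100 had 5.71, 6.54 and 8.52 CPM in homozygous plants, against 2.57, 2.03 and 2.07 CPM in heterozygous plants (1.64 ± 0.20, adjusted p = 0.0034). By contrast, none of the 25 tested nuclear genes of respiratory chain subunits was called by edgeR, 7 had an unadjusted p under 0.05 and DESeq2 called 2. Their median log2 fold change was 0.16, and ATP3, the gamma subunit of the mitochondrial ATP synthase, had 107, 113 and 105 CPM in homozygous plants, against 94.2, 113 and 96.3 CPM in heterozygous plants.

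The machinery of organelle transcription and editing moved in part. All 3 phage-type RNA polymerase genes, which encode the single-subunit enzymes that transcribe organelle genes, rose. They were called without any one nuwa library and with flower bud content as a covariate, but not with the 6 nuwa libraries alone. SCA3 (AT2G24120) had 27.4, 32.3 and 29.7 CPM in homozygous plants, against 13.3, 12.3 and 12.7 CPM in heterozygous plants (log2 fold change 1.22 ± 0.17, adjusted p = 0.0063). MGP3 (AT1G68990) had 8.26, 8.89 and 9.35 CPM in homozygous plants, against 4.84, 3.73 and 3.85 CPM in heterozygous plants (1.1 ± 0.17, adjusted p = 0.0107). AT5G15700 had 2.97, 3.45 and 3.85 CPM in homozygous plants, against 1.12, 1.43 and 1.43 CPM in heterozygous plants (1.36 ± 0.19, adjusted p = 0.0063). The 6 sigma factor genes of the plastid-encoded polymerase were not called, with log2 fold changes between 0.12 and 0.34. Mitochondrial transcription termination factors were a family chosen after values were seen. Of 30 tested genes with this annotation, 4 were called higher (13.3%, beside 1.54% of all tested genes). Among the 4 was BSM (0.84 ± 0.11 on the log2 scale).

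Of 34 tested editing factors, 32 had a positive log2 fold change, and the median was 0.43. Of the 34, 6 were called higher (17.65%, beside 1.54% of all tested genes) and none lower. Besides DYW2 these were MORF1 (1.26 ± 0.24), AT5G54580 (0.71 ± 0.14), RIP1 (0.65 ± 0.12), MORF3 (0.53 ± 0.11) and AT2G33430 (0.52 ± 0.12), where MORF1, MORF3, RIP1 and AT2G33430 (MORF2) belong to a family of small proteins needed for editing at many sites. RIP1 had 56.6, 55.6 and 61.4 CPM in homozygous plants, against 35.0, 40.5 and 35.3 CPM in heterozygous plants. None of the 6 was called without heterozygous replicate 1 or without homozygous replicate 2. There were 3 editing factors called without heterozygous replicate 2, 1 without heterozygous replicate 3 and 4 with the flower bud covariate. The fit of the 6 nuwa libraries alone called none. The wider class of pentatricopeptide or tetratricopeptide repeat genes gave 15 higher calls of 550 tested (2.73%, beside 1.54% of all tested genes).

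**Figure D4:**
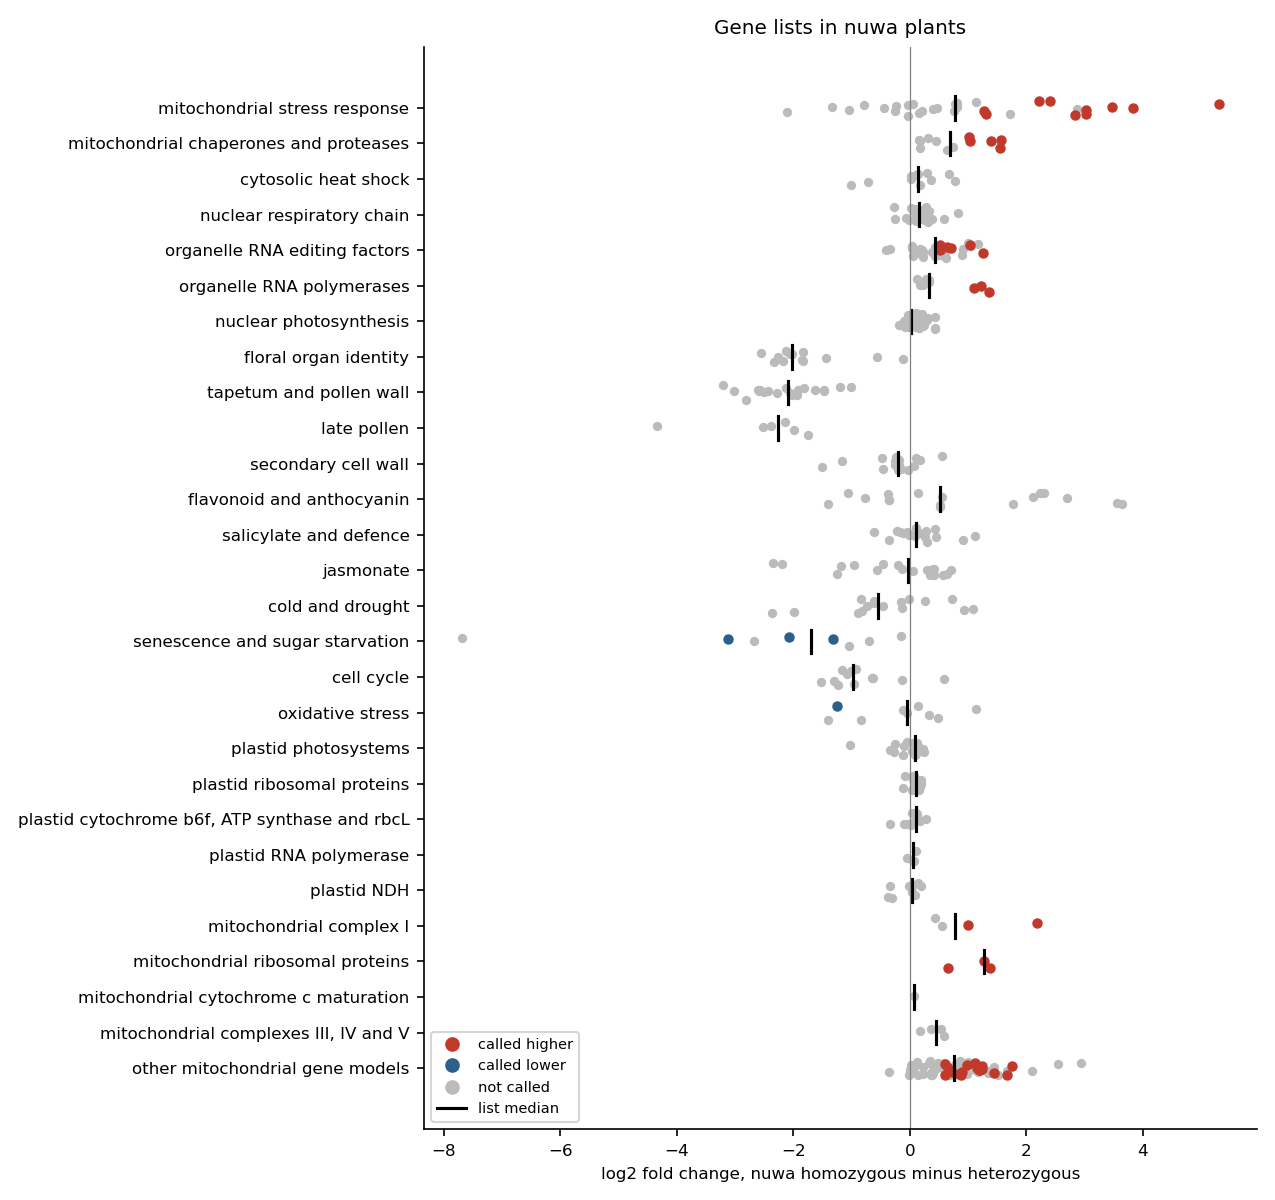
Log2 fold change of every tested member of 28 lists in nuwa homozygous over heterozygous plants; red and blue points were called higher and lower at an adjusted p below 0.05, and black bars are list medians. Red points lie in lists of mitochondrial function and organelle gene expression, and blue ones in 2 lists, the starvation genes and CSD1.

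Among the nuclear genes with the largest called rises, AT3G49320, a predicted metal-dependent hydrolase, had 7.40, 7.44 and 9.28 CPM in homozygous plants, against 1.47, 1.83 and 1.22 CPM in heterozygous plants (log2 fold change 2.41 ± 0.18, adjusted p = 9.6e-05). EMB2729, an alpha-amylase family gene, and AT4G36580, an AAA-type ATPase, both had log2 fold changes of 1.80. AT1G53645 (1.77), AT1G48570 (1.60, a zinc finger gene) and AT2G07696 (1.58, ribosomal protein S7 family, on the chromosome 2 mitochondrial copy) followed. Without both disputed libraries AT1G53645 had a log2 fold change of 1.25 and was not called. With the flower bud covariate it had 2.58 and was called. ELIP2, a light-stress protein of the chlorophyll-binding family, had 6.40, 15.4 and 4.07 CPM in homozygous plants, against 2.90, 1.78 and 2.33 CPM in heterozygous plants. Its log2 fold change of 1.88 (adjusted p = 0.049) was 1.17 without homozygous replicate 2, and it was called only when homozygous replicate 3 was the library left out.

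Several of the largest falls were in genes known to be induced by darkness or sugar starvation. Of the 8 tested senescence and starvation genes, 3 were called lower and none higher, and all 8 log2 fold changes were negative, with a median of -1.69. DIN10, a raffinose synthase family gene, had 25.1, 17.0 and 15.1 CPM in homozygous plants, against 43.7, 52.3 and 47.4 CPM in heterozygous plants (log2 fold change -1.32 ± 0.21, adjusted p = 0.0124). SEN1 had 2.90, 1.68 and 2.12 CPM in homozygous plants, against 6.32, 36.6 and 15.5 CPM in heterozygous plants (-3.12 ± 0.50, adjusted p = 0.0122). ASN1, the dark-inducible asparagine synthetase, had 1.88, 1.48 and 4.45 CPM in homozygous plants, against 9.02, 15.3 and 8.72 CPM in heterozygous plants (-2.07 ± 0.47, adjusted p = 0.0485).

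Heterozygous replicate 2 was the highest library in SEN1 and ASN1 and held nearly all of the DIN2 signal, with 6.82 CPM, against 0.022 and 0.0174 CPM in the other heterozygous libraries. Without it the log2 fold changes were -2.28 for SEN1 and -1.75 for ASN1, and ASN1 was not called. Of the 3, none was called without homozygous replicate 2, and ASN1 was called only when homozygous replicate 3 was the library left out. With the flower bud covariate ASN1 had a log2 fold change of -1.01 and was not called. The same order was seen in AT2G33830, a dormancy/auxin associated gene, with 0.785, 0.671 and 0.856 CPM in homozygous plants, against 2.77, 18.3 and 3.17 CPM in heterozygous plants. Its log2 fold change of -3.38 ± 0.70 was -1.94 without heterozygous replicate 2, and it was not called without homozygous replicate 1 or 2.

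Of the other large falls, AT3G15450, of the aluminum induced family, had 8.16, 7.14 and 13.6 CPM in homozygous plants, against 37.3, 72.1 and 48.3 CPM in heterozygous plants (-2.45 ± 0.38, adjusted p = 0.0109). DYL1, a dormancy-associated gene, had 1.12, 1.04 and 1.52 CPM in homozygous plants, against 3.87, 5.95 and 3.29 CPM in heterozygous plants (-1.83 ± 0.30, adjusted p = 0.0143). Neither was called without homozygous replicate 2 or with the flower bud covariate. GDPD2, of the phosphodiesterase superfamily, AT3G61160, a protein kinase, and AT4G32460, annotated as a choice-of-anchor C domain protein, each fell by 1.96 on the log2 scale. With the flower bud covariate their log2 fold changes were -0.92, -1.49 and -1.29, and none was called. None of the 3 was called without heterozygous replicate 1 or without homozygous replicate 2. AT5G02540, a Rossmann-fold protein, had 3.38, 2.65 and 2.76 CPM in homozygous plants, against 9.79, 6.55 and 10.5 CPM in heterozygous plants (-1.60 ± 0.22, adjusted p = 0.0063) and was 1 of the 3 falls called without each nuwa library, and was also called with the flower bud covariate. The remaining falls of the top 12 were AT4G23420 (-1.68), the RNA gene AT2G43375 (-1.65) and the spliceosomal RNA gene U1.5 (-1.61), which has near-identical copies and is uncertain. These 3 were not called without heterozygous replicate 1, without homozygous replicate 2 or with the flower bud covariate.

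CSD1, a cytosolic copper/zinc superoxide dismutase, was the one called member of the oxidative stress list. It had 28.8, 22.9 and 18.1 CPM in homozygous plants, against 56.4, 66.7 and 43.3 CPM in heterozygous plants (log2 fold change -1.25 ± 0.24, adjusted p = 0.0278). It was not called without heterozygous replicate 1 or 2 or homozygous replicate 2. CSD1 transcripts are a known target of the microRNA miR398, whose precursors are induced when copper is scarce. The microRNA and its best match in the CSD1 transcript are printed to show where they match, with the seed (bases 2 to 8) in capitals in the microRNA and the Watson-Crick pairs in capitals in the site.
miR398c-3p (chr5:4694778-4694798, plus strand): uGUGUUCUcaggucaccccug
CSD1 site (chr1:2827177-2827685, plus strand, spanning an intron): aAGGGGUuuCCUGAGAuCACA
The site pairs with 17 of its 21 bases, and the best matches in CCS and CSD2 with 15 and 13. The part of miR398 in the following values was not tested. Genes of this pathway were chosen after values were seen. The precursor MIR398c had 23.1, 19.1 and 16.3 CPM in homozygous plants, against 9.42, 9.88 and 13.0 CPM in heterozygous plants (log2 fold change 0.86 ± 0.20, adjusted p = 0.0492). CSD2, the plastid enzyme, had 38.6, 28.2 and 15.8 CPM in homozygous plants, against 95.4, 70.2 and 51.9 CPM in heterozygous plants (-1.40 ± 0.37, adjusted p = 0.0762), and CCS, their copper chaperone, had 6.07, 6.30 and 5.76 CPM, against 11.2, 8.91 and 9.70 CPM (-0.72 ± 0.19, adjusted p = 0.0765). Neither passed, although the groups did not overlap, which 12.7% of all tested genes also showed in the lower direction. The copper regulator gene SPL7, the copper-responsive MIR408 and the iron superoxide dismutase gene FSD1 overlapped between the groups. COPT2, a copper transporter gene, was higher without overlap (log2 fold change 1.09) but was not called. The precursors MIR398a and MIR398b had at most 5 reads in any nuwa library and were not tested. In dyw2 homozygous plants MIR398c and CSD2 were both called lower (-1.18 and -2.40), and CSD1 was not called (0.31).

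Many other groups gave no call. The 65 tested plastid genes of photosystems, ribosomal proteins, cytochrome b6f, ATP synthase, rbcL, RNA polymerase and NDH subunits were not called by edgeR or DESeq2, and 1 had an unadjusted p under 0.05. Their list medians lay between 0.04 and 0.10 on the log2 scale. The gene psbA, for the D1 protein of photosystem II, had 731900, 490400 and 452400 CPM in homozygous plants, against 548700, 693100 and 552400 CPM in heterozygous plants. The 47 nuclear photosynthesis genes had a median of 0.03, with no call by edgeR or DESeq2 and none at an unadjusted p under 0.05. The 18 tested salicylate and defence genes gave no call by edgeR or DESeq2 and none at an unadjusted p under 0.05, and PR1 had 67.3, 34.9 and 119 CPM in homozygous plants, against 14.6, 69.2 and 17.9 CPM in heterozygous plants.

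In the flavonoid and anthocyanin list no gene was called by edgeR, 3 were called higher by DESeq2, and 6 had an unadjusted p under 0.05 with a higher level. DFR, an enzyme of anthocyanin synthesis, had 0.405, 5.6 and 0.0238 CPM in homozygous plants, against 0.0880, 0.278 and 0.0871 CPM in heterozygous plants. PAP1, the MYB activator of the pathway, had 2.55, 7.21 and 1.12 CPM in homozygous plants, against 0.418, 0.848 and 0.871 CPM in heterozygous plants. Homozygous replicate 2 was the highest library in both. Without homozygous replicate 3, edgeR called 5 members of this list higher and 1 lower. The cell cycle list had a median of -0.98 and no call by edgeR or DESeq2 (8 of 12 genes at an unadjusted p under 0.05), and its summed level of 8.07, 9.72 and 29.3 CPM in homozygous plants, against 36.1, 23.3 and 35.2 CPM in heterozygous plants, was low in the same homozygous libraries as the flower lists, whose part in it was not tested. Without homozygous replicate 3, edgeR called 8 of these 12 genes lower.

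The dyw2 comparison shares no library with this one and called 62.9% of tested genes, 30.1% higher and 32.8% lower. Of the 327 genes called higher in nuwa homozygous plants, 293 were also called higher in dyw2 homozygous plants, with a median log2 fold change of 0.97 in nuwa and 1.82 in dyw2, and 13 were called lower there. The difference between the effects was itself called for 40.9% of all genes. Among the 327 it was called for 226, with the nuwa effect below the dyw2 effect in 198 and above it in 28. Of the 135 genes called lower in nuwa, 66 were called lower and 30 higher in dyw2 homozygous plants.

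Of the 22 called mitochondrial gene models, nad9 was the one with a larger effect in nuwa than in dyw2. Its log2 fold change was 2.19 ± 0.15 in nuwa and 1.23 ± 0.15 in dyw2, a difference of 0.96 (adjusted p = 0.0031), while for rps3, nad7 and rpl2 the nuwa effect was lower than the dyw2 effect by 2.2, 1.53 and 1.91. The dyw2 homozygous libraries had 408, 423 and 418 CPM of nad9, against 200, 162 and 169 CPM in dyw2 heterozygous ones. On this scale nuwa homozygous plants held the highest nad9 levels of all 4 groups. The TMM factors were 0.62, 0.80 and 0.89 in nuwa homozygous libraries and 2.23, 2.06 and 2.02 in dyw2 homozygous ones. The order of the nuwa and dyw2 homozygous groups, and the difference of 0.96, therefore depend on the scaling. AT2G21640, at about 10 CPM in nuwa homozygous plants, had a log2 fold change of 7.20 in dyw2, and AOX1A one of 3.42, against 1.31 in nuwa. Some genes that fell in nuwa were higher in dyw2. ASN1 had a log2 fold change of -2.07 in nuwa and 3.50 in dyw2, DYL1 of -1.83 and 1.81, and AT2G33830 of -3.38 and 2.52, each with the difference called. DIN10 was lower in both, at -1.32 and -0.59, and of the 8 tested starvation genes 4 were called higher and 2 lower in dyw2. EXPA14 and XTH31, which act on cell wall extension, rose in nuwa with log2 fold changes of 1.31 and 1.15 and fell in dyw2 with -2.76 and -2.65. The 47 nuclear photosynthesis genes, none called in nuwa, were all called lower in dyw2, with a median of -2.75.

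**Figure D5:**
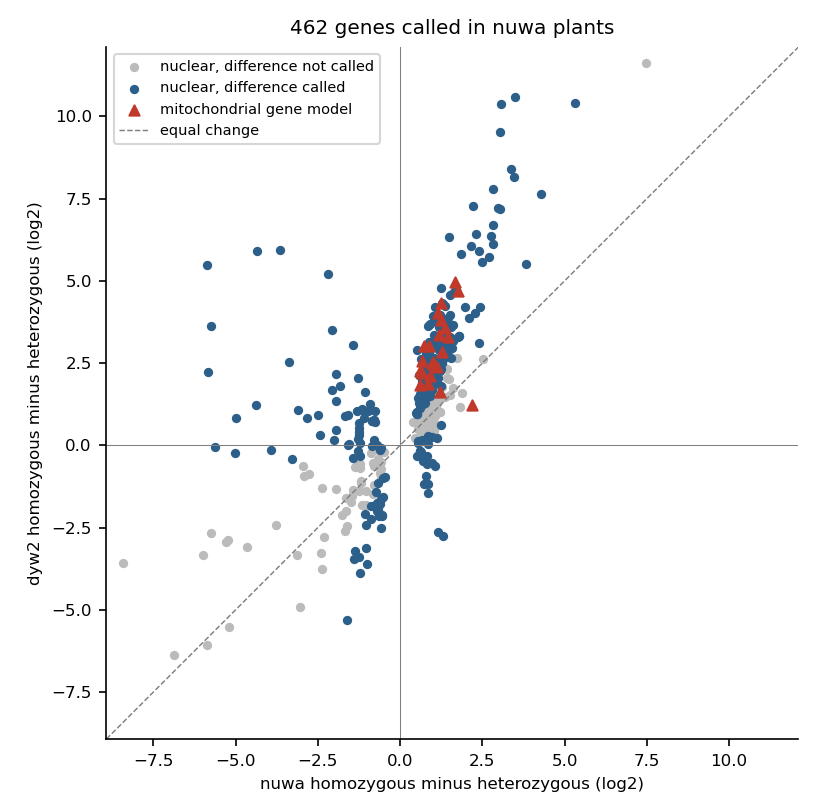
Log2 fold change of the 462 genes called in nuwa plants (x) against the dyw2 comparison (y); triangles are mitochondrial gene models and the dashed line marks equal change. Most higher genes lie above the line, and nad9 is the triangle below it.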

How the data were processed

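The authors deposited one table per library of raw read counts per gene model, with single-mapping reads in the column used here, and 33602 gene models each. Per the submitters' processing notes, reads were processed with TopHat2, Bowtie2 and the TAIR10 genome. Per the file headers, reads with equal best and second-best alignment scores were removed before counting, 2.54% to 3.39% of reads in the nuwa libraries. No source used here states a strand setting for the counting, so reads of a gene and of its antisense partner may be mixed.

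Genes were kept by edgeR's filter (minimum count 10, total 15), scaled by TMM and tested with edgeR 4.0.16 (quasi-likelihood test, R 4.3.3) in one model of the 4 groups of 3 libraries, with 8 residual degrees of freedom and Benjamini-Hochberg adjustment. Levels are in CPM and the SE is the log2 fold change divided by the square root of F. DESeq2 1.42.0 was an alternative. In a simulation of 20996 genes, calls were made for 54 of 100 genes given a 2-fold change and for 92 of 100 given a 4-fold change. Of its 153 calls, 7 fell on unchanged genes. These rates describe the simulated counts and are not the error rate of the calls reported here. Their size under a split within the homozygous group, or under disputed labels, was not tested. Groups follow the sample titles, whose replicates the series describes as biological. Same-numbered libraries of the nuwa groups had correlations of deviations of -0.01, 0.06 and 0.17, so the numbers were not taken to pair samples. No pair of replicates matched within counting noise (chi-square per degree of freedom 34.2 to 124).

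Named genes were NUWA and DYW2, the 12 largest called rises and 12 largest called falls of nuclear genes with a mean log2 CPM of at least 1 and no overlap, up to 4 called members of each list in each direction or else its 2 most abundant members, and, of the called genes, 5 per direction whose difference from the dyw2 effect had the lowest p. Other genes named were chosen after their values were seen. The comparison, its members and all gene lists were chosen with earlier results of these data known. Annotation and sequences are from TAIR10.1 (RefSeq), and 32835 gene models matched it. Organelle gene names were accepted where the gene length matched (94 of 105). Nuclear copies of organelle sequence were found with at least 95% identity over at least 90% of the gene. Alternatives were other scalings, filters and tests, a replicate block, the genotype field's groups, a flower bud covariate, one depth, and leaving out each library.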

Additional observations from a re-analysis of the deposited data

Results flagged for a closer look

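The nuwa effect and the dyw2 effect, each homozygous minus heterozygous on the log2 scale, differed for 45 of the genes named here, by edgeR's test of the difference itself at an adjusted p under 0.05. Values are the nuwa effect minus the dyw2 effect. Groups of 3 libraries are too small for the test of single outlying libraries.

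Among mitochondrial gene models the difference was 0.96 for nad9, -1.53 for nad7, -2.20 for rps3 (ATMG00090), -1.56 for rpl16, -1.91 for rpl2, -2.93 for ATMG01240, -3.30 for ATMG00630, -1.84 for ATMG00120 and -2.57 for ATMG00830. Among genes of mitochondrial stress it was -4.17 for AT2G21640, -5.10 for AT2G04050, -1.67 for AT5G51440 and -4.70 for DTX1. For chaperone and protease genes it was -1.66 for LON1, -2.06 for mtHsc70-1, -2.09 for MTHSC70-2 and -1.05 for HSP60. For genes of organelle editing and transcription it was -1.25 for MORF1, -1.11 for RIP1, -1.35 for AT5G15700 and -0.81 for MGP3.

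Among the other large rises it was -1.77 for AT2G07733, -0.70 for AT3G49320, -1.52 for EMB2729, -1.53 for AT4G36580, -1.52 for AT1G53645, -3.02 for AT5G54100 and -1.37 for AT2G07696. Among the falls it was -5.90 for AT2G33830, -4.18 for SEN1, -2.77 for AT3G15450, -5.57 for ASN1, -2.43 for GDPD2, -3.31 for AT3G61160, -3.63 for DYL1, 3.71 for AT5G02540 and -1.56 for CSD1.

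Of the genes picked for the smallest p of the difference, the nuwa effect was above the dyw2 effect by 4.07 for EXPA14, 1.62 for AT2G37470, 3.79 for XTH31 and 1.91 for TET10. It differed by -2.79 for AT2G07686, -2.40 for AT3G22850, -7.40 for BGLU45 and -9.58 for GOX3. GOX3 had 0, 0 and 1 reads in nuwa homozygous plants, against 6, 9 and 9 in nuwa heterozygous plants, so its fitted value depends on the prior count.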

How the results depend on the processing

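Against 327 higher and 135 lower genes, the counts stayed within 1.5 times under DESeq2 size factors, scaling by nuclear genes, either filter on low counts and thinning to one depth. With the 6 nuwa libraries alone, 6 genes were called, 6 higher and 0 lower. With the groups of the genotype field, 0 genes were called, 0 higher and 0 lower, with 0 calls for the difference between the nuwa and dyw2 effects and 0 nuwa calls in the same direction in dyw2, where titles gave 359. With the replicate block, 240 genes were called, 174 higher and 66 lower, 214 of them in the same direction in dyw2; the numbers do not pair the samples. Without both disputed libraries, 1411 were called, 1024 of them lower and 864 in the same direction in dyw2. With the flower bud covariate, 318 higher and 37 lower genes were called, of which 171 and 14 were among those reported. DESeq2's own test called 1413, 863 higher and 550 lower, with 985 in the same direction in dyw2. Leaving out each library in turn gave 94 to 1739 calls, 89 to 495 higher, 5 to 1244 lower, and 88 to 1069 in the same direction in dyw2. Without psbA in the total, the difference in mitochondrial share was 0.336 percentage points. The cause of these changes was not tested, apart from the smaller number of libraries where some are left out.

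Log2 fold changes of opposite sign to those reported came mostly from uncalled genes near 0. The called ones were ASN1, BGLU45 and GOX3 under the genotype field groups, where none was called. With the 6 nuwa libraries alone they were -0.0080 for MBF1C and -0.0011 for petB. With the replicate block they were -0.026 for petB. With the genotype field groups they were 1.11 for ASN1, -0.039 for MBF1C, -0.21 for RBCS1A, -0.32 for CAB1, 0.35 for WRKY70, -0.20 for psbB, -0.12 for rps14, -0.075 for rbcL, -0.22 for petB, -0.049 for rpoA, -0.30 for ndhA, 2.61 for BGLU45 and 3.34 for GOX3. Without both disputed libraries they were 0.031 for psbA and 0.016 for rpl32. With the flower bud covariate they were -0.33 for MBF1C, -0.033 for ATP3, -0.16 for ATP5, -0.32 for RBCS1A and -0.25 for CAB1. For DRL1 and VGD1 they were 0.049 and 0.22, but both are on the flower lists, so this covariate is partly built from them. The rest with this covariate were 0.44 for LAC17, 0.24 for FLS1, -0.38 for AOS, 0.066 for CYCD3;1, 0.14 for CDKB2;1, -0.27 for psbB, -0.11 for rps14, -0.095 for rbcL, -0.55 for petB, -0.22 for rpoA, -0.11 for rpoC2, -0.40 for ndhA and -0.015 for ccmB. With each library left out in turn they ranged over -0.24 to 0.23 for MBF1C, -0.44 to 0.030 for XCP2, -0.48 to 0.53 for WRKY70, -0.34 to 0.032 for psbA, -0.0097 to 0.22 for rpoC2, -0.24 to 0.0086 for SEP4, -0.74 to 0.60 for LAC17, -0.33 to 0.084 for RD22, -0.26 to 0.23 for petB, -0.086 to 0.15 for CAB1, -0.11 to 0.27 for psbB, -0.024 to 0.16 for rpoA, -0.20 to 0.20 for ndhA, -0.062 to 0.18 for ccmB and -0.38 to 0.085 for rpl32.

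Counts of 1 to 3 reads in some libraries limit the genes near the floor, such as NDB4 and AOX1D. With 3 libraries a group, calls rest on a spread that is shared over all 4 groups.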

Other observations

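Gene families not on any list were counted by their annotated product or symbol, 13 in all and after values were seen. Of 157 tested genes with an embryo-defective symbol, 12 were called higher and none lower (7.64%). Of 25 tested genes of the DUF295 family, 5 were called higher (20%), although the family's median log2 fold change was -0.09. Of 62 tested RNA helicase genes 4 were called higher (6.45%), and of 27 tested genes of U3 or ribosomal RNA processing 4 (14.8%). The 321 tested ribosomal protein genes gave 7 higher calls (2.18%), against 1.54% called higher over all genes. None of 51 tested tRNA synthetase genes was called.

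The flower bud score, a mean over the flower lists used as the covariate, was -3.24, -3.25 and 1.46 in nuwa homozygous libraries, against 2.46, 1.55 and 2.26 in nuwa heterozygous ones. It also differed within dyw2 heterozygous plants, at 2.46, -0.64 and 1.44. Among homozygous libraries only nuwa replicate 3 had a positive score. The covariate fit therefore leans in part on that library, whose genotype is disputed.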
